A study of Mus musculus with 4 samples.

Results

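Trabecular cardiomyocytes form the muscular strands that line the inside of the embryonic ventricle. Here they were selected on their own transcripts in single-cell RNA-seq of mouse ventricles at embryonic day 14.5, and 1189 of 45551 cell barcodes (2.61%) were members. A barcode stands for the contents of 1 droplet, and a UMI (unique molecular identifier) for 1 captured RNA molecule. Members were chosen by the following limits. They held 1000 to 7000 genes and at most 15% mitochondrial UMIs. At least 1% of their UMIs came from the sarcomere genes *Tnnt2*, *Actc1*, *Tnnc1* and *Ttn*. They held at most 1 UMI of the endothelial genes *Pecam1*, *Cdh5*, *Emcn* and *Egfl7*, and at most 3 UMIs of the cycling genes *Rrm2*, *Esco2*, *Pclaf*, *Hist1h1b*, *Ube2c*, *Ccnb1*, *Cenpf* and *Hmmr*. *Nppa* made up at least 0.5% and *Sln* less than 0.1% of UMIs, and no *Tbx3* UMI was present. The last pair of limits kept out atrial and conduction-like cells, and removed 27 of the 1216 barcodes that passed the *Nppa* limit.

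The study asked how loss of the transcription factor *Ets1* from endothelial cells alters the ventricular wall. Controls were Tie2Cre;Ets1 fl/+ embryos and the eKO (endothelial knockout) embryos were Tie2Cre;Ets1 fl/fl, both on a C57BL/6 background and of both sexes. There were 2 libraries per genotype, each made from 3 pooled ventricles with a droplet-based 3' kit. Tie2Cre acts in the endothelial lineage, so *Ets1* was not targeted in cardiomyocytes. Control embryos also carried the Cre and 1 floxed allele, and no library was free of either.

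Trabeculae form when cardiomyocytes of the early ventricular wall delaminate towards the lumen in response to signals from the endocardium, among them neuregulin, which is received by ErbB receptors, and Notch ligands and receptors. Trabecular cells divide less than those of the compact zone, conduct impulses rapidly through the gap junction protein encoded by *Gja5*, and give rise to much of the ventricular conduction system. *Nppa* encodes the natriuretic peptide ANF, *Bmp10* a growth factor required for trabecular growth, and *Cited1* a transcriptional coregulator.

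Control replicates 1 and 2 gave 314 and 158 members, and eKO replicates 1 and 2 gave 189 and 528. Values for the 4 libraries are given below in this order, as CPM (UMIs of a gene per 1000000 UMIs of all members of a library). Members of these libraries summed to 3892239, 2096031, 2148487 and 4098058 UMIs. Their median depth was 11856.5, 11940.0, 10994.0 and 7316.5 UMIs per cell, so eKO replicate 2 was the shallowest library and also supplied the most members. Across all 45551 barcodes the libraries held 124140739, 76931208, 95131419 and 102872196 UMIs.

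The libraries also stood apart in the sex of the pooled embryos. A Y-linked UMI was present in 83.8% of members of control replicate 1, 48.7% of control replicate 2, 27.0% of eKO replicate 1 and 1.14% of eKO replicate 2. *Xist* UMIs, which mark female cells, were found in 0%, 46.2%, 64.6% and 83.9%. Control replicate 1 thus held mainly male cells, eKO replicate 2 mainly female cells and the other libraries both. Sex was thus unevenly spread over the genotypes, and 1 library of each genotype held cells of both sexes in number. Between 19 and 47 barcode sequences were shared by each pair of libraries, and 1 of these was a member in both eKO libraries.

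*Ets1* itself was measured in endothelial cells of the same libraries at 321, 284, 149.7 and 102 CPM, lower in both eKO libraries than in both controls, as labelled. In trabecular cardiomyocytes it was near absent, at 3.08, 3.34, 4.19 and 6.59 CPM (12, 7, 9 and 27 UMIs). The part of the transcript that was deleted is not given in the labels, so these 3' counts in cardiomyocytes check nothing about the deletion.

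The label held against markers that the limits did not use. *Bmp10* was measured at 98.4, 159.8, 130.3 and 102 CPM in trabecular cells. In compact cardiomyocytes it was at 0.188, 2.41, 0.201 and 1.39. Compact cardiomyocytes were here 1743 barcodes under the same limits on cells, endothelial and cycling UMIs, *Sln* and *Tbx3*, with *Nppa* under 0.1% and *Tnnt1* at least 0.2% of UMIs. Every trabecular library lay far above every compact one for *Bmp10*. *Cited1* stood at 1301, 1750.0, 1843 and 3030.5 in trabecular and 116, 95.6, 99.7 and 132 in compact cells. *Gja5* stood at 100.5, 119, 115 and 85.9 and 12.8, 9.62, 8.65 and 9.03. No library overlapped between the classes for either gene. *Nppa*, on which both classes were selected, was at 16101, 18011, 23181 and 21977 against 43.5, 56.03, 44.2 and 115 CPM.

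Of the other trabecular markers, *Irx3*, a transcription factor of the fast conduction system, was at 62.4, 53.9, 94.95 and 65.9 against 9.56, 6.19, 6.84 and 7.87 in compact cells. *Nppb*, the neighbour of *Nppa* that encodes the natriuretic peptide BNP, was at 532, 324, 149 and 322 against 24.6, 22, 15.9 and 30.6. *Sema3a*, a secreted guidance cue, was at 209, 353, 275 and 231 against 13.3, 16.8, 11.7 and 12.04. All 9 genes of the trabecular list were higher in each trabecular library than in any compact library, *Nppa* among them by selection. So were 1162 of all 10860 genes tested between genotypes. *Etv1* was at 76.3, 99.2, 89.8 and 55.9 against 15.2, 15.1, 15.9 and 12.3. *Cpne5* was at 26.2, 25.8, 34.9 and 34.9 against 4.31, 5.16, 2.61 and 3.704. These class contrasts are a description with no test, because the classes were chosen on *Nppa* and *Tnnt1*.

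Most compact zone genes went the other way. *Hey2*, a transcriptional repressor of the compact zone, was at 33.1, 25.3, 24.2 and 18.5 in trabecular and 90.4, 96.6, 92.1 and 81.5 in compact cells. *Mycn*, a growth regulator, was at 7.45, 6.68, 6.52 and 6.101 and 18.8, 19.9, 15.7 and 21.1, and *Tbx20* at 299, 253, 249 and 179.6 and 536, 541, 492 and 375. For these 3 genes every trabecular library lay below every compact one. The cyclin genes of the list overlapped between the classes. *Ccnd1* was at 58.1, 61.5, 56.8 and 59.1 against 38.1, 47.1, 36.8 and 57.2, higher in trabecular than in compact cells of each library. *Ccnd2* was at 321, 324, 345 and 269 against 249.9, 342, 325 and 299.8. *Tnnt1*, which had been used to choose the compact class only, was at 182, 128, 128 and 183 in trabecular cells and 4698, 4617, 5304 and 4780.0 in compact cells.

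**Figure D1:**
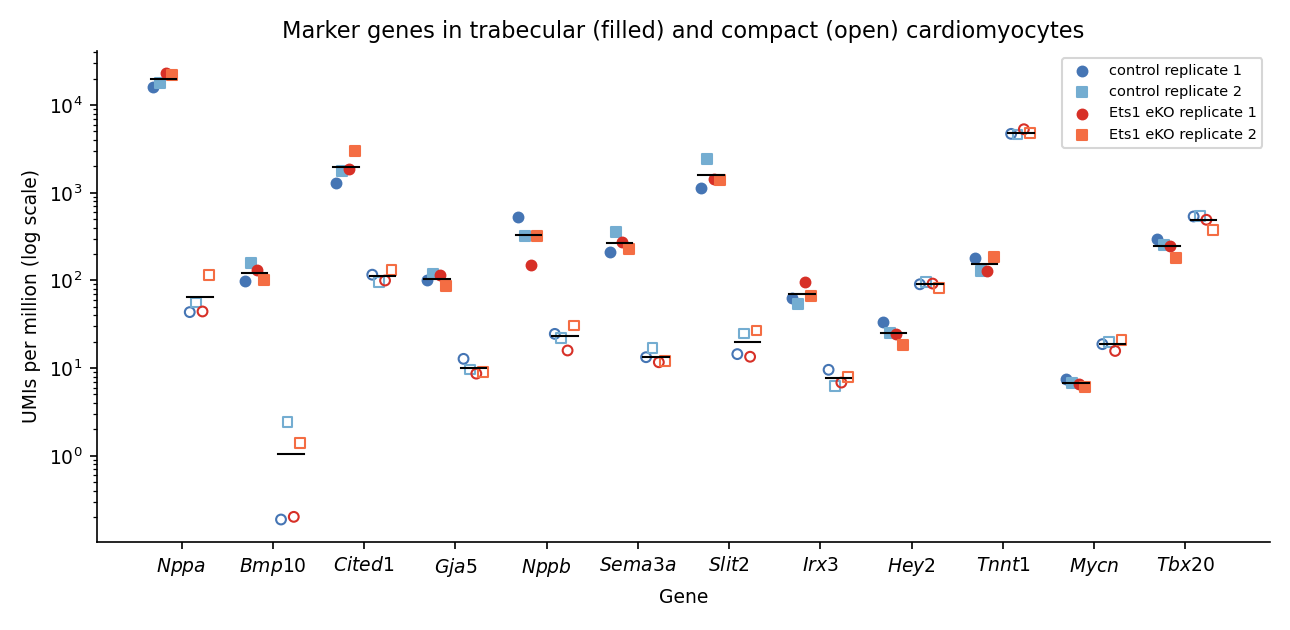
CPM on a log axis for 12 genes, 1 point per library, in trabecular (filled) and compact (open) cardiomyocytes, with black lines for the mean of 4 libraries. For all 12 genes the trabecular and compact points do not overlap, from *Nppa* at 16101 or more against 115 or less to *Tbx20* at 299 or less against 375 or more. Both classes were chosen on *Nppa*, so its separation was set by the limits. The compact class was also chosen on *Tnnt1*, so the separation of *Tnnt1* was set in part. *Ccnd1* and *Ccnd2* of the compact zone list, which overlapped between the classes, are not shown.

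Genes of chamber side were read as values only. *Hand1*, a gene of the left ventricle, was at 33.7, 29.6, 42.4 and 37.3, and *Tbx5*, also left-sided, at 70.1, 85.4, 73.5 and 49.5. *Hand2* was at 45.2, 32.9, 47.01 and 35.6 CPM. *Hand1* and *Tbx5* were higher in each trabecular library than in any compact one, where they were at 10.9, 8.25, 9.45 and 16.4 and 16.1, 22.3, 17.9 and 17.1, and *Hand2* lower than in any compact one. *Cck* was near 0 at 0, 0, 0.465 and 0.976.

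Cell by cell, the markers were sparse. After thinning each cell to 3000 UMIs, *Cited1* had a UMI in 87.1%, 91.0%, 92.4% and 96.3% of trabecular cells. *Bmp10* had one in 22.01%, 38.7%, 27.0% and 25.9%, and *Gja5* in 25.2%, 35.5%, 25.4% and 21.2%. Leukocytes, which should lack all 3, gave 1.65% to 8.07% for *Cited1*, at most 0.662% for *Bmp10* and at most 0.549% for *Gja5* at the same thinned depth. Before thinning the medians were 11856.5, 11940.0, 10994.0 and 7316.5 UMIs in members and 6385.0, 7396.5, 6308.5 and 4070.0 in leukocytes. In control replicate 1 the share of members with a *Bmp10* UMI was 54.8% without thinning. None of the 3 genes was seen in 9.39%, 5.81%, 5.41% and 2.65% of trabecular cells after thinning, against 73.9%, 74.8%, 74.1% and 69.8% of compact cells. All 3 were seen together in 6.47%, 16.8%, 5.95% and 6.11% of trabecular cells and in 0% of compact cells of each library. At this depth a cell without a UMI is not shown to lack the gene.

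Cells on both sides of the *Nppa* limit had similar marker levels. The lowest member held 96 *Nppa* UMIs of 19186 (0.50036%) and the highest cell below the limit 69 of 13825 (0.4991%). There were 120 cells between 0.5% and 0.6% and 125 between 0.4% and 0.5%. Their mean *Bmp10* levels over libraries were 75.9 and 81.6 CPM, *Cited1* 1340.5 and 1344, *Gja5* 74.5 and 91.9, and *Hey2* 47.8 and 38.6. The limit lies within a continuous range of *Nppa*, and the difference between the bands was not tested.

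Within that range the class was graded. Non-cycling cardiomyocytes outside the *Sln* and *Tbx3* limits set aside, there were 6608 cells with *Nppa* under 0.1% of UMIs, 775 between 0.1% and 0.5%, and 395, 366 and 428 members at 0.5% to 1%, 1% to 2% and 2% or more. *Bmp10* averaged 5.602, 50.7, 87.9, 118 and 164 CPM over these 5 ranges. *Cited1* averaged 329.8, 1189, 1433, 1969 and 2499 and *Gja5* 13.6, 58.1, 87, 95.8 and 132. All 3 were lowest in the first range and highest in the last. *Sema3a* followed the same order, at 29.1, 129.8, 203, 257 and 343, as did *Tbx5* at 24.01, 45.8, 58.9, 68.5 and 85.1.

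Compact zone genes divided along the same ranges. *Hey2* averaged 79.5, 48.97, 36.8, 23.9 and 15.1 CPM and *Tnnt1* 1509, 325, 176, 147 and 141, opposite to *Bmp10*. *Mycn* and *Tbx20* were also highest in the first range and lowest in the last. The cyclin genes of the list were lowest in the first range and highest in the last. *Ccnd2* averaged 259, 279, 297, 317 and 339 and *Ccnd1* 49.1, 56.7, 57.6, 56.9 and 62.9. *Tnnt1* had reached its low level by 0.5% *Nppa*, while *Hey2* was lower again in each range above. *Kcne1*, a potassium channel subunit, was at 242, 119, 105, 68.04 and 52.8. *Myl2* was at 12428, 14237, 14421, 14830.0 and 14559. *Myl4*, a myosin light chain of the embryonic heart and the atria, was at 4142, 5651, 6126, 6944 and 7834.

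**Figure D2:**
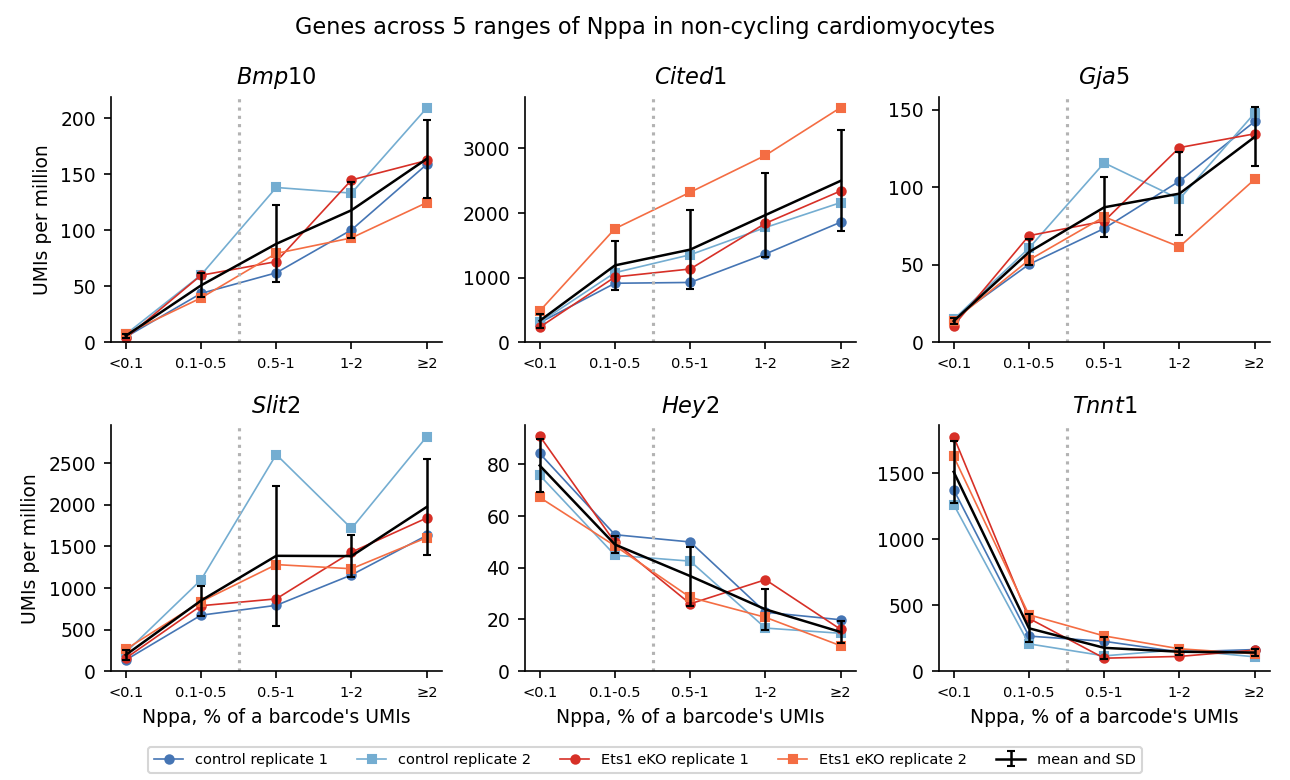
CPM of 6 genes in non-cycling cardiomyocytes across 5 ranges of *Nppa* (percent of a cell's UMIs), with 1 coloured line per library, the mean and SD (n = 4) in black and the membership limit dotted. Mean *Bmp10* runs from 5.602 in the lowest range to 164 in the highest and mean *Hey2* from 79.5 to 15.1.

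The genes most enriched over compact cells, after *Nppa* and *Bmp10*, were led by *Slit2*, which encodes a secreted ligand of Robo receptors. *Slit2* was at 1119.7, 2396, 1439 and 1406 CPM in trabecular cells and 14.4, 24.7, 13.5 and 26.9 in compact cells, a log2 ratio of mean levels of 6.32. Control replicate 2 was the highest trabecular library, and every one lay far above the compact ones. In endothelial cells of the same libraries *Slit2* was at 210.5, 255, 138 and 157, below each trabecular value. *Mest*, an imprinted gene, was at 1660.2, 2333, 1829 and 2238 against 119, 115, 95.5 and 132 (log2 ratio 4.13). *Myl1*, a skeletal and embryonic myosin light chain, was at 163, 208, 200.1 and 254 against 9.75, 16.2, 6.03 and 11.6 (4.25), *Rtl4* at 103, 175, 144 and 109.6 against 3.75, 8.25, 4.63 and 5.79 (4.57) and *Thbs4*, a matrix thrombospondin, at 70.7, 84.9, 96.8 and 65.4 against 3.75, 3.44, 4.22 and 2.78 (4.49). None of these genes separated the genotypes, since control and eKO values overlapped for each.

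Among the genes most depleted from trabecular cells, the adhesion receptor gene *Adgrb3* was at 0.257, 0.954, 0 and 0.488 against 51.8, 79.7, 42.4 and 64.4 in compact cells (log2 ratio −7.13). *Chn2* was at 3.597, 1.43, 0.465 and 3.42 against 53.6, 114, 71.99 and 110.4 (−5.30), *Ryr3* at 8.48, 17.7, 11.2 and 9.76 against 189, 237, 229 and 160.0 (−4.11) and *Epha3* at 14.6, 7.63, 6.05 and 13.9 against 127, 170.1, 127 and 148 (−3.76). In each case all 4 trabecular libraries lay below all 4 compact ones. *Sema5a*, *Aldoc*, *Zfp536* and *Fstl4* were also among the lowest ratios without overlap between classes, from −3.56 to −2.55. Among 3293 genes at 50 CPM or more in either class, 397 were higher and 659 lower in every trabecular library than in every compact one.

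Among metabolic genes those of glycolysis divided by class. Of 18 glycolysis and hypoxia genes, 16 were lower in every trabecular library than in every compact one, with a median log2 ratio of −1.10. Of all 10860 genes tested between genotypes, 1162 were higher and 1499 lower in this way. *Gapdh* was at 2475, 2354, 2013 and 2639.5 against 4090.2, 4177, 3922 and 4654 CPM and *Ldha*, which makes lactate, at 855, 862, 725 and 1031 against 1692, 1716, 1784 and 2132. The summed level of the list was 7011, 6683, 5825 and 7825 in trabecular and 12847, 13098, 13151 and 15360.1 in compact cells. Mitochondrially encoded genes ran the other way, with 7 of 13 higher in every trabecular library, a median log2 ratio of 0.53 and *mt-Co1* at 10094, 10109, 9303 and 6877 against 6409.5, 6715, 6174 and 4939. The limit on mitochondrial UMIs applied equally to both classes. Of 18 genes of fatty acid use, 6 were higher in every trabecular library and 0 lower (1162 and 1499 of all 10860), and of 93 nuclear genes of the respiratory chain with a UMI, 1 was higher and 5 lower. *Mb*, the oxygen-binding myoglobin, was at 427, 376, 302 and 301 against 1617, 1622, 1867 and 1681, a gene chosen for naming after its values were seen.

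Conduction and channel genes divided within their lists. Of 12 genes of ventricular conduction, 7 were higher and 3 lower in every trabecular library than in every compact one, beside 1162 and 1499 of all 10860 genes tested. *Kcnj3* was at 86.8, 164, 91.7 and 70.8 against 13.5, 24.1, 13.9 and 14.4 and *Kcne1* at 92.2, 52, 67.5 and 89.8 against 315, 219, 284 and 258. *Kcnj3* was thus higher in trabecular and *Kcne1* in compact cells, without overlap of libraries. Among receptors for Slit ligands and matrix, the integrin *Itga6* was at 86.3, 155, 123 and 132 against 13.5, 12.03, 13.7 and 16.2 and *Itga1* at 91.7, 102, 60.97 and 72.96 against 141, 183, 159.7 and 142. *Erbb4*, the neuregulin receptor of cardiomyocytes, was at 828, 1018, 602 and 536 in trabecular and 1318, 1654, 1197 and 1149 in compact cells.

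The promoters of 3 marker genes are shown because *Nppa* defined the class and *Nppb* and *Bmp10* were among its markers. *Nppb* ends 13517 bases before *Nppa* starts on the same strand of chromosome 4. Each window runs from 250 bases before to 50 bases after the RefSeq start of the gene on build GRCm38.p6, plus strand, written 5′ to 3′. Capitals mark matches to the T-box half-site AGGTGTGA and, given by name, the Nkx2-5, GATA, M-CAT and CArG motifs. Both strands were searched. Of 32851 promoter windows of this length, 1.28% held the T-box letters, 11.5% those of Nkx2-5, 25.4% GATA, 14.7% M-CAT and 1.63% a CArG box.
Nppa, chr4:148000472-148000771: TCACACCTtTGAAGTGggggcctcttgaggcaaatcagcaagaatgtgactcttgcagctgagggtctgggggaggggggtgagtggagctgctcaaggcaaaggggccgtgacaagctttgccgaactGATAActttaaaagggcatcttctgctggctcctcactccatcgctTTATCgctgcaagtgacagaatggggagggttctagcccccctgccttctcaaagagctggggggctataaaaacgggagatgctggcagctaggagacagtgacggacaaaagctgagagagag
Nppb, chr4:147985650-147985949: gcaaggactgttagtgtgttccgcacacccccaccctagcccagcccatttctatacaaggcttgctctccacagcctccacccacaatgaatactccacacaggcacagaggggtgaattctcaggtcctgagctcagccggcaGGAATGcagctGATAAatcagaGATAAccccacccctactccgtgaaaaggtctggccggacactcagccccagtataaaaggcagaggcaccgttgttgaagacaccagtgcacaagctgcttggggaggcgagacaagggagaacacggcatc
Bmp10, chr6:87428744-87429043: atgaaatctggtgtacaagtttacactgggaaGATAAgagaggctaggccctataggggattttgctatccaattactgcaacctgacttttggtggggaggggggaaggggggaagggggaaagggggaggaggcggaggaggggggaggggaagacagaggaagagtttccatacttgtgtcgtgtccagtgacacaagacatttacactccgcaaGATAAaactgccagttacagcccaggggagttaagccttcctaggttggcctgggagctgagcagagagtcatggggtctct
The *Nppa* window held the T-box letters at its first base, 250 bases before the start, followed by the Nkx2-5 letters from −241 and GATA letters from −121 and −75. *Nppb* held GATA letters from −94 and −83 and M-CAT letters from −105, and *Bmp10* held GATA letters from −218 and −32. A match is a description and not a binding site.

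The first comparison asked which genes differed between eKO and control trabecular cells, with the library as the unit and n = 2 per genotype. Compared to controls, 1 of 10860 genes tested was higher in eKO trabecular cells (0.00921%) and 5 were lower (0.046%) in edgeR's quasi-likelihood test, at an adjusted p of at most 0.05 by the Benjamini-Hochberg method. The higher gene was *AY036118*, a long noncoding RNA, and the lower ones were *Hspa1a*, *Hspa1b*, *Kctd16*, *Sorcs2* and *Nr4a1*. Values without overlap between genotypes were far more common, with 1556 genes (14.3%) higher and 3660 (33.7%) lower in both eKO libraries on the scale of CPM. Left out in turn, control replicate 1 gave 7 higher and 17 lower genes, control replicate 2 gave 18 and 42, eKO replicate 1 gave 980 and 444, and eKO replicate 2 gave 88 and 85, each time with the lone library of a genotype assumed to vary like the other group. With the Y-linked share of a library as a covariate 2 genes were higher and 1 lower, and 0 of the 6 genes were among them. In that fit the log2 fold changes of *AY036118* (1.43), *Sorcs2* (−1.79) and *Nr4a1* (−1.50) kept their size with a larger SE (0.55, 0.49 and 0.54), while those of *Kctd16* (−1.61), *Hspa1a* (−2.38) and *Hspa1b* (−1.63) were smaller. With cells of each sex summed apart within a library and sex in the model, an alternative added after seeing the data, *AY036118*, *Hspa1a*, *Kctd16* and *Sorcs2* passed the threshold and *Hspa1b* and *Nr4a1* did not. Sums by sex from 1 library are not separate replicates, and there were still 2 libraries per genotype.

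*Hspa1a*, which encodes an inducible heat shock protein of the Hsp70 family, was at 43.7, 25.3, 2.79 and 2.93 CPM in trabecular cells (170, 53, 6 and 12 UMIs). Both controls were high and both eKO libraries near the level of compact cells, which was 3.56, 1.37, 2.41 and 1.16. It fell by 3.5 on the log2 scale (SE 0.35, adjusted p = 0.0011 in edgeR with Benjamini-Hochberg adjustment, lower in 2 of 2 eKO libraries). *Hspa1b*, its near-identical neighbour, was at 31.3, 17.7, 3.72 and 2.68 and fell by 2.93 (SE 0.36, edgeR, Benjamini-Hochberg adjusted p = 0.0035, lower in 2 of 2 eKO libraries). In members with Y-linked and no *Xist* UMIs *Hspa1a* was at 45.1, 34.6 and 3.84 CPM in control replicates 1 and 2 and eKO replicate 1 (263, 70 and 48 cells). In members with *Xist* and no Y-linked UMIs it was at 16.2, 2.75 and 2.77 in control replicate 2 and eKO replicates 1 and 2 (66, 119 and 440 cells). It was lower in eKO libraries within each sex, but the first set held 1 eKO library and the second 1 control library. *Hspa1b* also missed the threshold with *Nppa* at 1% (−2.29). How the authors' counting split reads between this pair is uncertain. The fall was not confined to the class, because endothelial cells of the same libraries were at 38.4, 15.3, 2.81 and 2.42 for *Hspa1a* and 38.7, 24.6, 3.75 and 3.19 for *Hspa1b*. Leukocytes overlapped between genotypes for *Hspa1a*, at 34.9, 38.5, 16.8 and 43.2, and were lower in both eKO libraries for *Hspa1b*, at 19.7, 15.4, 5.36 and 14.2.

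The promoter windows of both genes are shown because the genes moved together. They lie 9952 bases apart on the minus strand of chromosome 17 and differ at 4 of 300 bases (98.67% identical). Capitals mark the heat shock letters GAANNTTC and TTCNNGAA, which 7.86% and 8.52% of the 32851 windows held, on both strands of build GRCm38.p6 with RefSeq starts.
Hspa1a, chr17:34972107-34972406: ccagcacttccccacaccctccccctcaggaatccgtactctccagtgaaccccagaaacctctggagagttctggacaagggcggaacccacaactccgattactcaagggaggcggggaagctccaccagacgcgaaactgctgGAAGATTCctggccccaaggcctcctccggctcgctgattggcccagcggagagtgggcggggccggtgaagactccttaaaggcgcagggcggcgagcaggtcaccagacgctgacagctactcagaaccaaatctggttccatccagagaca
Hspa1b, chr17:34959189-34959488: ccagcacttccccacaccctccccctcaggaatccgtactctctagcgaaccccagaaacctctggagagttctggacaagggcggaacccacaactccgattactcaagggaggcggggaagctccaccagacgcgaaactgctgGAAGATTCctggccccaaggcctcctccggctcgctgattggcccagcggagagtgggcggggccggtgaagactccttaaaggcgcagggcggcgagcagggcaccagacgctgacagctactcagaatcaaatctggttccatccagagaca
Both held GAANNTTC from −104 to −97 and neither window held TTCNNGAA. As for the markers, this describes the letters only.

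*Nr4a1*, an immediate early nuclear receptor, was at 34.4, 35.8, 12.6 and 11.2 CPM, with both controls about level and both eKO libraries below them. It fell by 1.46 on the log2 scale (SE 0.22, edgeR, Benjamini-Hochberg adjusted p = 0.0215, lower in 2 of 2 eKO libraries). It missed the threshold with DESeq2 (−1.44), with *Nppa* at 1% (−1.14), with limits applied after thinning (−1.22) and with sex in the model (−1.30). In endothelial cells it was at 25.6, 20.5, 14.5 and 9.46. *Kctd16*, an auxiliary subunit of GABA-B receptors, was at 62.4, 41.03, 10.2 and 5.86 (243, 86, 22 and 24 UMIs), high in both controls. It fell by 2.69 (SE 0.29, edgeR, Benjamini-Hochberg adjusted p = 0.0014, lower in 2 of 2 eKO libraries). *Sorcs2*, a sorting receptor of the sortilin family, was at 63.2, 74.4, 22.8 and 17.8 and fell by 1.67 (SE 0.21, edgeR, Benjamini-Hochberg adjusted p = 0.0035, lower in 2 of 2 eKO libraries). Compact cells showed the same order for *Sorcs2*, at 40.1, 34.4, 13.9 and 8.57, and endothelial cells the opposite one at a lower level, at 2.81, 2.899, 12.5 and 9.9.

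*AY036118* was at 122, 146, 383 and 287 CPM in trabecular cells. Both eKO libraries were above both controls, while compact cells overlapped at 168, 249.5, 261 and 167. It rose by 1.43 on the log2 scale (SE 0.20, edgeR, Benjamini-Hochberg adjusted p = 0.0147, higher in 2 of 2 eKO libraries). The gene lies on chromosome 17 at bases 39847113 to 39848035, where it overlaps a copy of the ribosomal RNA precursor, so that the origin of its reads is uncertain. Without control replicate 1 its log2 fold change was 1.29 and its adjusted p 0.191 (edgeR, Benjamini-Hochberg adjustment, higher in 2 of 2 eKO libraries). It also missed the threshold with *Nppa* at 1% (1.34) and with limits applied after thinning (1.32).

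**Figure D3:**
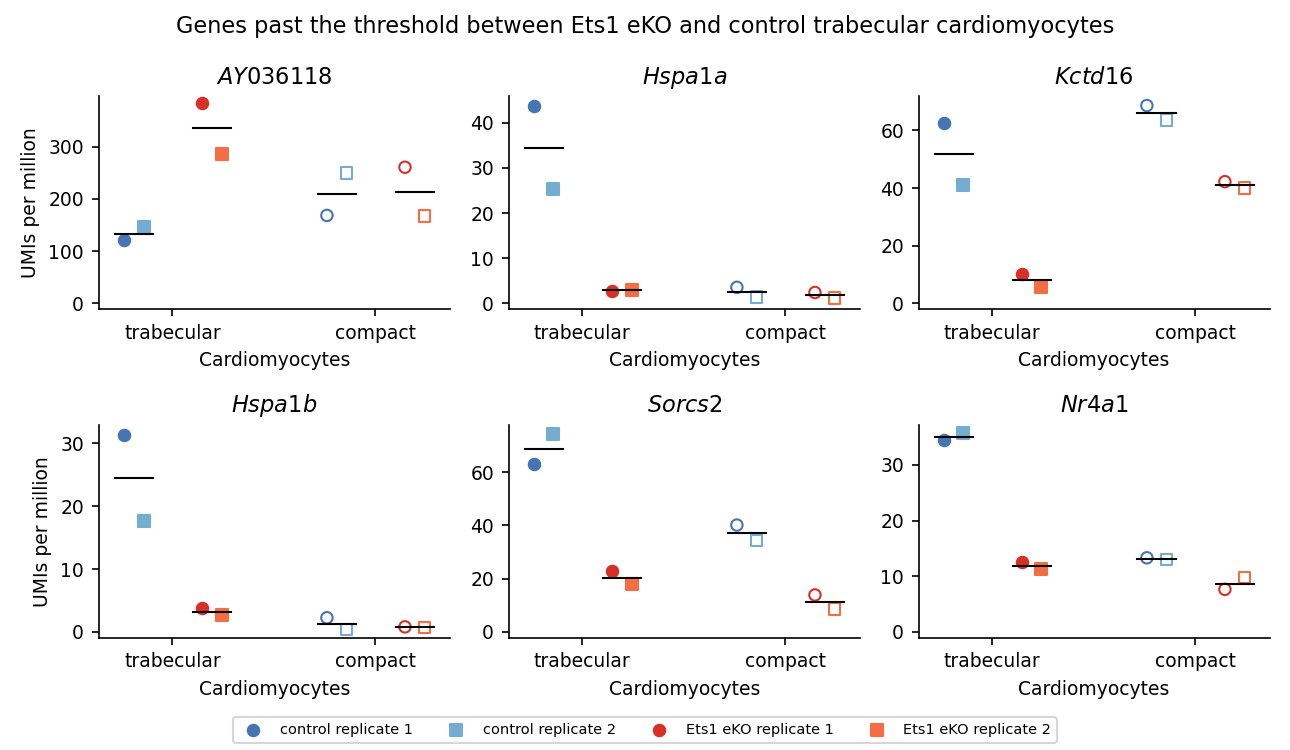
CPM of the 6 genes past the threshold between genotypes, in trabecular (filled) and compact (open) cardiomyocytes, 1 point per library and black lines for group means (n = 2). In trabecular cells the groups do not overlap, from *Hspa1a* at 25.3 or more in controls and 2.93 or less in eKO libraries to *AY036118* at 146 or less and 287 or more.

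Further genes had groups that did not overlap but missed the threshold, and only their values are given. The eKO libraries were above the controls for *Igfbpl1* at 24.9, 30.1, 47.01 and 60.8, *Cd9* at 15.7, 15.7, 26.5 and 42.5, *Gsta4* at 37.8, 36.7, 55.9 and 64.9 and *Apoe* at 49.6, 39.1, 61.9 and 97.4. They were below the controls for *Gramd1b* at 118, 146, 64.2 and 53.9 and for *Atf3*, a stress-induced transcription factor, at 151, 123, 59.6 and 67.6. *Cited1* was at 1301, 1750.0, 1843 and 3030.5 (log2 fold change 0.78, SE 0.26) and *Nppb* at 532, 324, 149 and 322 (−0.74, SE 0.31), with adjusted p of 0.281 and 0.319 in edgeR with Benjamini-Hochberg adjustment, higher and lower in 2 of 2 eKO libraries. *Bmp10* at 98.4, 159.8, 130.3 and 102 and *Gja5* at 100.5, 119, 115 and 85.9 overlapped between genotypes. *Nppa* was higher in both eKO libraries, a description only since the cells were selected on it.

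Stress and immediate early genes were the list with most calls. Of 20 tested, 3 were called lower (*Hspa1a*, *Hspa1b* and *Nr4a1*, beside 5 of all 10860 genes or 0.046%) and 0 higher, 14 were lower without overlap (33.7% of all genes were), and the median log2 fold change was −0.59 against 0.00 over all 10860 genes. Of the 3, *Hspa1b* and *Nr4a1* missed the threshold with sex in the model. *Fos* was at 258, 232, 116 and 159.6 CPM and *Jun* at 286, 219, 147 and 154, lower in both eKO libraries, and both were chosen for naming after their values were seen. The summed list was at 3439, 2972, 2322 and 2683 in trabecular and 3016, 2859, 2650.2 and 3171 in compact cells, with *Hspa8* the most abundant gene. In leukocytes *Fos* was at 2551, 2003, 2152 and 1609.8 and *Atf3* at 1663, 1386, 1470.3 and 1178, and in endothelial cells *Fos* was at 306, 196, 155 and 124. *Fos* levels in endothelial cells were lower in both eKO libraries, as in trabecular cells. The authors describe a warm trypsin digestion of the tissue over a range of times. The time of each library is not recorded, and the part of digestion in these values was not tested.

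Nuclear genes of energy use and translation had mostly small positive values, and mitochondrially encoded genes mostly negative ones. Of 90 nuclear genes of the respiratory chain tested, 88 had a positive fold change and 34 were higher without overlap, with a median of 0.32 and 0 called by edgeR. Of 93 cytosolic ribosomal protein genes, 85 were positive and 38 higher without overlap, with a median of 0.29 and 0 called. Over all 10860 genes, 700 were higher and 844 lower at an unadjusted p under 0.05 in edgeR, 5459 had a positive fold change, and 1556 (14.3%) were higher and 3660 (33.7%) lower without overlap. DESeq2, run on 18743 genes, called 1 higher and 4 lower. Summed respiratory genes stood at 68568, 69925, 79860.4 and 79586 CPM and summed ribosomal genes at 112888, 112897, 132037 and 127432, both higher in both eKO libraries. Compact cells gave 75289.8, 70895, 83952 and 74461 and 138694, 141025, 158436 and 156163. Mitochondrially encoded genes summed to 78965, 80612, 68645 and 63175 in trabecular cells, lower in both eKO libraries, with 8 of 13 negative, a median of −0.17 and 0 called. Fatty acid genes had 13 of 18 positive (median 0.20), and glycolysis and hypoxia genes 10 of 17 (median 0.05), a sign that turned to −0.05 with total counts as the scale.

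Ion channel and calcium handling genes had mostly negative values, beside 5401 negative of all 10860 genes. Of 12 ion channel genes tested, 11 were negative and 8 lower without overlap (33.7% of all genes were), with a median of −0.51. *Kcnd2*, a potassium channel gene, was at 113, 168, 81.5 and 79.3, below the controls in both eKO libraries. Of 11 calcium handling genes, 9 were negative and 9 lower without overlap (33.7% of all genes, median of the list −0.16), with *Ryr2*, the calcium release channel, at 1381, 1449.9, 948 and 781 and *Cacna1c*, the calcium channel of the cell surface, at 2185, 2616, 1633 and 1228. *Slc8a1*, the most abundant gene of that list, was at 8369, 9096, 7037 and 5561. Conduction genes were nearer to all genes, with 7 of 11 negative (median −0.03). None of these genes passed the threshold.

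Pathways by which endocardium and myocardium signal to each other gave no call. All 11 genes of neuregulin and ErbB reception were negative in edgeR (median −0.23, 6 lower without overlap), with 1 positive under DESeq2, and *Erbb4* was at 828, 1018, 602 and 536. All 9 Notch pathway genes tested were negative (median −0.23, 7 lower without overlap), with *Mib1* at 56.01, 64.9, 47.5 and 42.7 and *Rbpj* at 33.9, 38.2, 33.5 and 24.4. Receptors for Slit and matrix had 7 of 10 negative (median −0.32) and BMP and TGF-beta genes 10 of 12 (median −0.31), with *Bmpr2*, a receptor that binds Bmp10, at 96.6, 114, 72.6 and 64.4. These medians stand beside a background in which 33.7% of genes were lower without overlap. With total counts as the scale the median of all genes moved to −0.106, so such list medians are read against that shift.

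Sarcomere genes were balanced, with 13 of 22 positive (median 0.05, turning to −0.06 on total counts) and *Myl2*, the most abundant, at 15257, 15279, 13472 and 14293. *Myl3* was at 8761, 8181, 9654 and 12452 and *Myl4* at 5886, 6259, 6749.9 and 9088, both higher in both eKO libraries. Natriuretic and stretch genes had 6 of 7 negative (median −0.31), with *Ankrd1* overlapping at 1029.7, 996, 1192 and 693 and *Corin*, the protease that activates natriuretic peptides, at 157, 148, 80.99 and 70.8. *Corin* was lower in both eKO libraries without passing the threshold. Among trabecular markers 3 of 8 tested were positive (median −0.04), among compact zone markers 3 of 6 (median −0.03, 0.00 under DESeq2) and among chamber side genes 2 of 3 (median 0.14). Cell cycle exit genes had 5 of 9 positive (median 0.09, turning to −0.01 on total counts), with *Cdkn1c* at 386, 394, 359.8 and 495 and *Btg2* at 130.3, 89.7, 55.4 and 52.2. The 12 cell cycle genes outside the limits had 7 positive (median 0.12).

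Markers of other cell types were also measured in trabecular cells, and some moved with genotype. Endothelial markers summed to 30.1, 23.9, 30.7 and 40.99 CPM over 12 genes, led by *Ramp2*, with 0 genes at 0 in every library. The sum includes *Pecam1*, *Cdh5*, *Emcn* and *Egfl7*, which the limits held to at most 1 UMI per cell, so selection set part of it. This limit counts UMIs and so allows a higher CPM in shallower cells, and eKO replicate 2 was the shallowest library. The sum was higher in both eKO libraries, in eKO replicate 1 only by 30.7 against 30.1 in control replicate 1. Of 3 tested genes, none of them in the limits, 2 were higher without overlap and 1 lower (median 1.27). Fibroblast and mesenchyme markers summed to 142, 104, 83.8 and 100.3 over 9 genes, led by *Col3a1*, and epicardial markers to 69.9, 63.9, 34.9 and 53.7 over 6, led by *Krt19*. Both sums were lower in both eKO libraries, with 6 of 8 (median −0.36) and 3 of 3 tested genes (median −0.35) negative. Leukocyte markers summed to 2.57, 0.477, 1.86 and 9.27 over 6 genes, led by *Fcer1g*, with 0 abundant enough to test, and eKO replicate 2 was the highest library. Smooth muscle markers summed to 991, 991, 632 and 1166 over 4 genes, led by *Acta2*, which embryonic cardiomyocytes also express. Atrioventricular canal markers summed to 11.8, 11.5, 6.98 and 9.03 over 5 genes, led by *Rspo3*, with *Tbx3* at 0 by selection. Atrial markers summed to 5887, 6261, 6757 and 9092 over 4 genes, nearly all from *Myl4*, while *Nr2f2* was at 0.771, 0.954, 3.26 and 1.71 and *Nr2f1* at 0, 0.954, 1.86 and 1.22. Of the 5 sex-linked genes, 4 were lower and *Xist* higher in both eKO libraries. The part of these transcripts in the results was not tested.

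Summed erythroid transcripts were highest in control replicate 1, but counted by cell they were not. The 6 erythroid markers summed to 1167, 62.02, 139 and 316 CPM, led by *Hbb-y* at 728, 8.11, 36.8 and 74.4. By cell, both eKO libraries were above both controls. The median member held 0.0108%, 0.0055%, 0.0134% and 0.0176% hemoglobin UMIs. After thinning to 3000 UMIs, 4.53%, 1.94%, 10.3% and 16.9% of members held a *Hbb-y* UMI. Only 3 members held over 2% hemoglobin UMIs, 1 of them in control replicate 1 and 2 in eKO replicate 2. *Nppa* UMIs were also found in other cell types, at 67.9, 15.4, 26.8 and 232 CPM in leukocytes and 40.6, 18.8, 23.3 and 92.0 in endothelial cells. Their source, free RNA or doublets, was not tested. The level was highest in eKO replicate 2, where 2 of 277 leukocytes passed the 0.5% limit, and 0 leukocytes of the other libraries did.

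The second comparison asked whether the eKO effect differed between trabecular and compact cells, in 1 model fitted to 8 sums, which held a term per library, a term for class and an interaction of class with genotype. It passed the threshold for 27 of 11957 genes tested (0.226%), 8 more positive and 19 more negative in trabecular cells. Left out in turn, control replicate 1 gave 3 genes, control replicate 2 gave 76, eKO replicate 1 gave 55 and eKO replicate 2 gave 46. DESeq2 called 1 gene, *AY036118*, and 864 genes had an unadjusted p under 0.05 in edgeR.

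Stress genes made up part of the negative side. *Atf3* was at 151, 123, 59.6 and 67.6 CPM in trabecular and 38.6, 34.03, 35.8 and 53.5 in compact cells, so that the genotypes separated in trabecular and not in compact cells, with a difference in log2 fold change of −1.38 (SE 0.17, edgeR, Benjamini-Hochberg adjusted p = 7.66e-06, lower in 2 of 2 eKO libraries). In endothelial cells *Atf3* was at 54.9, 51.3, 30.2 and 39.05 and in the remaining non-cycling cardiomyocytes at 54.4, 46.6, 36.5 and 35.5, lower in both eKO libraries of each. *Fos* was at 258, 232, 116 and 159.6 against 124, 95.2, 88.3 and 137 and *Fosb* at 54.5, 60.6, 19.5 and 29.04 against 7.5, 5.5, 8.04 and 9.72. Compact levels overlapped between genotypes for *Fos*, while for *Fosb* both eKO libraries were slightly above both controls in compact cells. In the remaining non-cycling cardiomyocytes *Fos* was at 139.6, 97.7, 71.3 and 94.2, and in cells with *Nppa* at 0.1% to 0.5% at 182, 164, 60.8 and 87.96, lower in both eKO libraries of each. Of 20 genes in the stress list, 6 differed negatively (*Atf3*, *Fos*, *Fosb*, *Jun*, *Dnajb1* and *Hspa1a*, beside 19 of all 11957 genes) and 0 positively, with a median difference of −0.45 against 0.02 over all genes. *Dnajb1* and *Dnaja4*, both cochaperones of Hsp70, were at 59.6, 54.9, 24.2 and 31.97 against 30.4, 25.8, 21.7 and 37.7 and at 65, 63.9, 38.6 and 31.7 against 25.3, 27.5, 32.98 and 28.9. Without the *Tnnt1* limit on compact cells *Fos* (−0.52), *Fosb* (−0.70), *Dnajb1* (−0.71) and *Hspa1a* (−1.90) missed the threshold. *Fosb*, *Dnajb1* and *Dnaja4* were likewise chosen after their values were seen.

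*Kctd16* also fell further in trabecular cells. Compact cells were at 68.6, 63.6, 42.2 and 40.1 CPM, against 62.4, 41.03, 10.2 and 5.86 in trabecular cells, and the difference was −2.08 (SE 0.26, edgeR, Benjamini-Hochberg adjusted p = 7.66e-06, lower in 2 of 2 eKO libraries of each class). Both classes were lower in eKO libraries and trabecular cells more so. *Sorcs2* gave a difference of 0.07 (SE 0.26, edgeR, Benjamini-Hochberg adjusted p = 0.979), with similar log2 fold changes in the classes. *Nppb*, with values given above, differed by −0.86 (SE 0.19, edgeR, Benjamini-Hochberg adjusted p = 0.0240). It was −0.56 without control replicate 1 and −0.78 without eKO replicate 1, neither past the threshold. With limits applied after thinning it was −0.43 and without the *Tnnt1* limit on compact cells −0.44, and both missed the threshold. Its lowest trabecular library was eKO replicate 1, and control replicate 2 and eKO replicate 2 were level, at 324 and 322. *Kcnd2* was at 422, 557, 394 and 518 in compact cells and overlapped there, with a difference of −0.66. It missed the threshold in 7 of 12 alternatives, among them those without control replicate 1 (−0.79), control replicate 2 (−0.55) or eKO replicate 2 (−0.44), *Nppa* at 1% (−0.33) and limits applied after thinning (−0.35).

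On the positive side *AY036118* differed by 1.31 (SE 0.14, edgeR, Benjamini-Hochberg adjusted p = 2.38e-07, higher in 2 of 2 eKO libraries). *Myl4* was at 5886, 6259, 6749.9 and 9088 CPM in trabecular cells and 2939, 2439, 2557 and 1934 in compact cells. It was higher in both eKO libraries in trabecular and not in compact cells, and eKO replicate 2 was both the highest trabecular and the lowest compact library. Its difference was 0.67 (SE 0.14, edgeR, Benjamini-Hochberg adjusted p = 0.02, higher in 2 of 2 eKO libraries). It was 0.23 without eKO replicate 2 and 0.45 without control replicate 1, neither past the threshold, and 1.10 without eKO replicate 1. The remaining large positive values rested on few UMIs or on compact cells. *Grid1* was at 0.514, 0, 0.465 and 1.71 in trabecular and 14.6, 5.84, 0.603 and 1.85 in compact cells, *Gal* at 5.91, 2.39, 10.2 and 4.39 and 24, 4.47, 0.201 and 4.399, and *Pid1* at 1.54, 2.39, 14.4 and 2.68 and 6, 1.03, 1.01 and 1.16. *Pf4*, a platelet and macrophage gene, was at 1.03, 0.477, 3.72 and 16.3 and 9.75, 0, 2.21 and 11.3.

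The embryonic globins gave the largest negative values. *Hba-x* was at 80.7, 1.43, 4.19 and 11.2 CPM in trabecular and 12.2, 0.687, 33.2 and 8.57 in compact cells, and *Hbb-y* at 728, 8.11, 36.8 and 74.4 and 264, 10.3, 600.2 and 59.96. Control replicate 1 was high in trabecular and eKO replicate 1 in compact cells. Limiting hemoglobin to 2% of UMIs, with a lower mitochondrial limit, turned both differences, to 0.27 and 0.60, and removal by doublet scores to 1.23 and 0.67. Without eKO replicate 1 the difference of *Hbb-y* was −0.94, and without control replicate 1 both missed the threshold. *Gm12940*, which completed the most negative genes, was at 18.5, 16.7, 5.12 and 7.32 against 10.7, 12.7, 12.3 and 13.9.

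**Figure D4:**
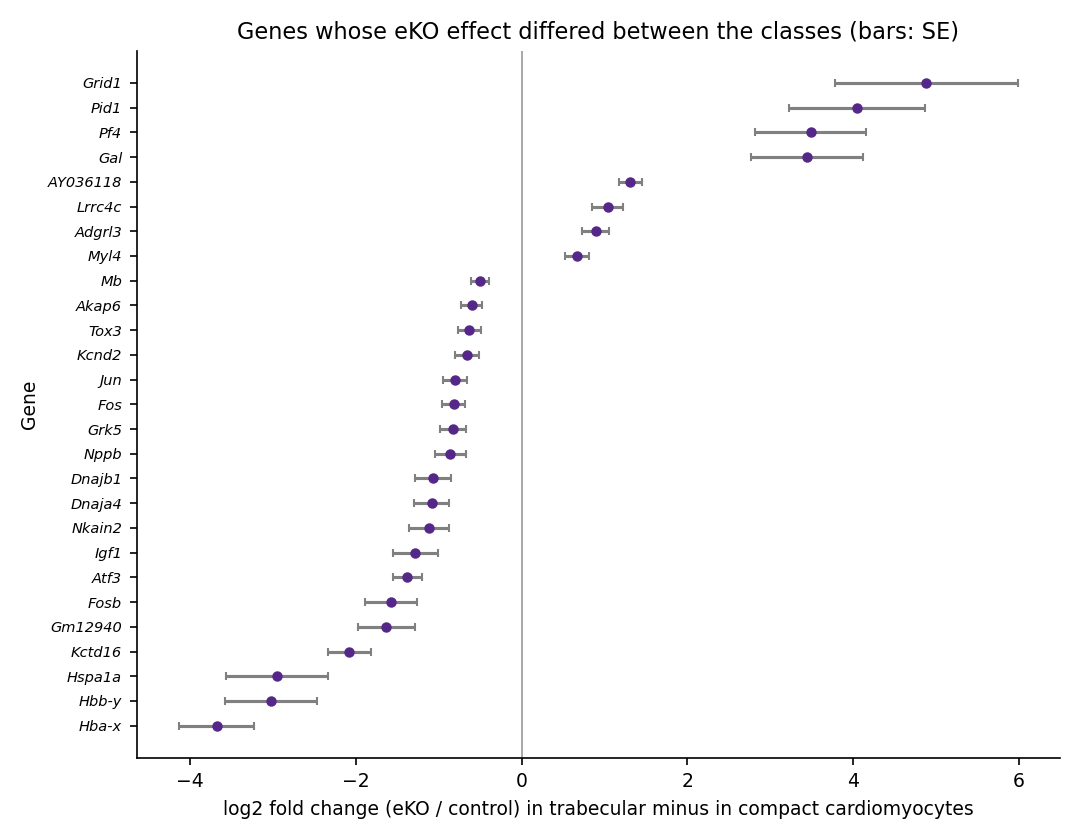
Difference in log2 fold change (eKO over control) between trabecular and compact cardiomyocytes for the 27 genes past the threshold, with SE from edgeR as bars. Values run from −3.68 (*Hba-x*) to 4.88 (*Grid1*), 8 of them above 0.

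Trabecular cells made up 11.6% (95% exact binomial interval 10.4% to 12.8%), 10.3% (8.80% to 11.9%), 9.67% (8.39% to 11.1%) and 16.9% (15.6% to 18.3%) of the 2716, 1538, 1955 and 3122 non-cycling cardiomyocytes. Intervals cover counting error only. Control and eKO libraries overlapped, and eKO replicate 2 alone was high. The mean was 10.9% ± 0.911 (SD, n = 2) in controls and 13.3% ± 5.12 (SD, n = 2) in eKO libraries, a difference of 2.37 percentage points (exact two-sided permutation test, p = 1.0). With 2 libraries against 2 this test cannot give a p below 0.333. Without eKO replicate 2 the difference was −1.25, and without eKO replicate 1 it was 6.00.

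Among *Nppa*-high cardiomyocytes of any cycling state, thinned to 3000 UMIs, 25.5%, 27.5%, 27.4% and 33.0% held more than 1 UMI of the 8 cycling genes. Again eKO replicate 2 alone was high and the groups overlapped, with a difference of 3.72 percentage points (exact permutation test, p = 0.667, n = 2 per group) that was 0.945 without eKO replicate 2 and 6.49 without eKO replicate 1. Thinning left out 7, 4, 4 and 40 shallower cells. The limit of 3 UMIs without thinning gave a difference of 0.805 percentage points, with overlap. Thinning to 5000 UMIs gave 6.34 and removal by doublet scores 4.45, both without overlap of the groups (exact two-sided permutation test, p = 0.333, n = 2 per group). Cardiomyocytes with *Nppa* under 0.1% were at 43.7%, 39.6%, 45.6% and 51.5%, above the *Nppa*-high cells in each library. In those cells both eKO libraries lay above both controls, by 6.88 percentage points (exact two-sided permutation test, p = 0.333, the smallest possible, n = 2 per group). That difference was 3.97 without eKO replicate 2 and 9.79 without eKO replicate 1.

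Few members also held much *Tnnt1*, with 4 of 314, 1 of 158, 0 of 189 and 4 of 528 at 0.2% of UMIs or more. These are 1.27%, 0.633%, 0% and 0.758%, where 0 of 189 allows up to 1.93% by the exact 95% interval. The groups overlapped, with a difference of −0.575 percentage points (exact permutation test, p = 0.667, n = 2 per group). They did not overlap with *Nppa* at 1% (−0.597) or the stricter cell filter (−0.844), both with p = 0.333 in the exact two-sided permutation test (n = 2 per group), and overlapped after removal by doublet scores (−0.192). Each library left out changed the size, to −0.254 without control replicate 1, −0.895 without control replicate 2, −0.196 without eKO replicate 1 and −0.953 without eKO replicate 2.

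**Figure D5:**
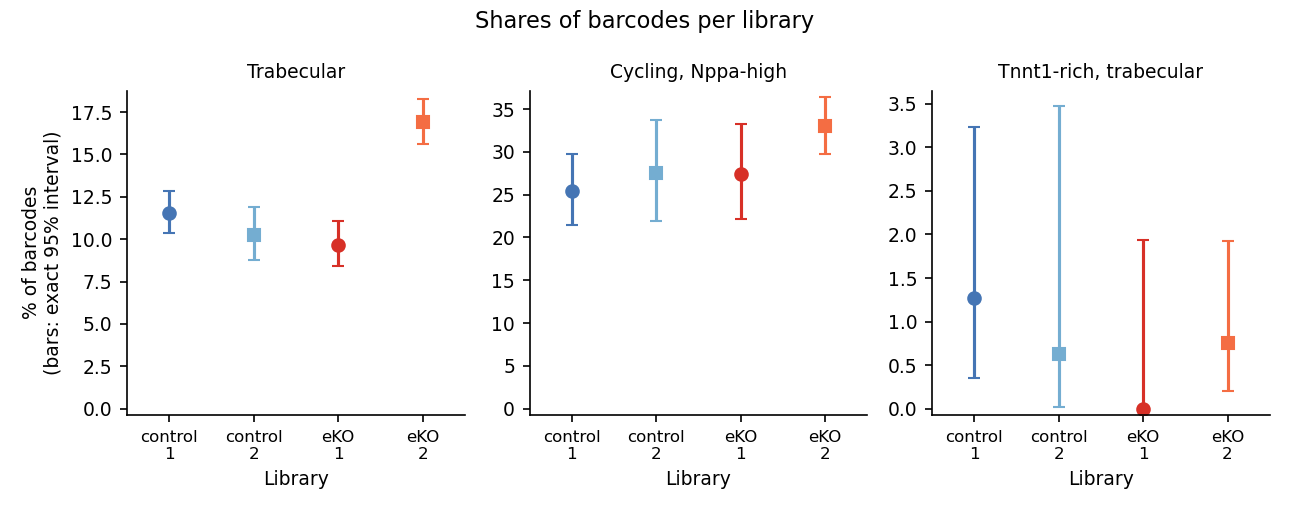
Percent of barcodes per library with exact 95% binomial intervals, for trabecular cells among non-cycling cardiomyocytes, cycling cells among *Nppa*-high cardiomyocytes (thinned to 3000 UMIs) and *Tnnt1*-rich cells among trabecular cells. The eKO replicate 2 library is highest in the first (16.9%) and second (33.0%) panel, and control and eKO libraries overlap in all 3.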

How the data were processed

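The authors aligned reads and deposited UMI counts per gene and barcode, and their processing notes name Cell Ranger 7.1.0 and Seurat 4.3.0. The authors describe a correction for ambient RNA, and the deposited counts do not show whether it had been applied to them. All steps here started from these counts. Counts of members were summed per library and tested with edgeR 4.0.16 (glmQLFit and glmQLFTest, TMM scaling, filterByExpr) in R 4.3.3, with Benjamini-Hochberg adjusted p at most 0.05. DESeq2 1.42.0 was the other tool. Genes of the limits were left out of the calls. The edgeR script was first tested on simulated data. Shares were compared by exact permutation tests (scipy 1.17.1), and cells were thinned to 3000 UMIs with a fixed seed. Doublets were not removed in the main analysis. In 1 alternative, barcodes scored by simulated doublets at 0.8% per 1000 barcodes were dropped (48 members). Positions come from GENCODE vM21, matched by ID for 32235 of 32285 genes, and promoters from RefSeq.

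Genes were named by this rule: all members of the lists of trabecular, compact zone and chamber side genes, up to 4 members of each other list (called first, then highest), the largest changes among called genes with a mean of at least 20 CPM and groups that do not overlap, up to 5 further genes by smallest p where fewer than 5 passed, the 5 largest class differences in each direction, and the 10 largest ratios to compact cells in each direction at 50 CPM or more without overlap between classes. The members and lists were chosen with earlier results of these data known. Alternatives were each library left out, scaling by total counts, testing of all genes with a count, a replicate block, the Y-linked share as covariate, *Nppa* at 1%, a stricter cell filter (10% mitochondrial and 2% hemoglobin UMIs), doublet scores, limits applied after thinning and a compact class without its *Tnnt1* limit. Shares were also taken without thinning, after thinning to 5000 UMIs and at 0.1% *Tnnt1*. Sex as a term and the crossed pairing were added after seeing the data.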

Additional observations from a re-analysis of the deposited data

Results flagged for a closer look

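The eKO effect differed between trabecular and compact cardiomyocytes by edgeR's test of the class by condition term for each gene below. Values are differences in log2 fold change, trabecular minus compact, over 4 libraries. More positive in trabecular cells were *Grid1* at 4.88, *Pid1* at 4.04, *Pf4* at 3.49, *Gal* at 3.44, *AY036118* at 1.31 and *Myl4* at 0.67. Those of *Grid1* and *Gal* sat in the compact class, where control replicate 1 was high. Single libraries moved several values. Without control replicate 1 *Pf4* was at −3.11, *Pid1* at 1.68, *Hba-x* at −2.08, *Hbb-y* at −1.41 and *Nppb* at −0.56, none past the threshold. Without eKO replicate 1 *Pid1* was at 2.37 and *Gal* at 1.92, both uncalled, *Hba-x* at −2.20, *Hbb-y* at −0.94 and *Myl4* at 1.10. Without eKO replicate 2 *Gal* was at 7.32, *Hba-x* at −5.61 and *Hbb-y* at −5.33, and *Myl4* at 0.23 and *Kcnd2* at −0.44 were uncalled. More negative were the globin genes *Hba-x* at −3.68 and *Hbb-y* at −3.02, which turned to 0.27 and 0.60 with the stricter cell filter and 1.23 and 0.67 with doublet scores, and the stress genes *Hspa1a* at −2.95, *Fosb* at −1.57, *Atf3* at −1.38, *Dnajb1* at −1.07, *Fos* at −0.82 and *Jun* at −0.80. *Kctd16* was at −2.08, *Gm12940* at −1.63, *Dnaja4* at −1.09, *Nppb* at −0.86, *Kcnd2* at −0.66 and *Mb* at −0.51. DESeq2 called only *AY036118* among all genes, and without control replicate 1 edgeR called 3 of the 27.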

How the results depend on the processing

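Counts of called genes depended on the setting. Against 1 higher and 5 lower genes between genotypes, total count scaling gave 2 and 26, no filter on low counts 40 and 81, the Y-linked share as a covariate 2 and 1, *Nppa* at 1% gave 0 and 3 (edgeR, 1261 genes at an unadjusted p under 0.05), and the stricter cell filter and doublet scores 2 higher each. Leaving out 1 library gave 7 to 980 higher and 17 to 444 lower genes. In these 4 fits all 5 lower genes were kept, and the higher gene in all but that without control replicate 1. With the Y-linked share as a covariate 0 of the 6 genes passed, with log2 fold changes of 1.43 for *AY036118*, −1.79 for *Sorcs2* and −1.50 for *Nr4a1*, near those without it, and smaller ones for *Kctd16* (−1.61), *Hspa1a* (−2.38) and *Hspa1b* (−1.63). Sex as a term, added after seeing the data, gave 1 and 3, all among the 6. Deviations from the group means had a correlation of −0.111 between libraries of the same replicate number, over 10871 genes. With 2 libraries per group, both numbers must give the same value. It therefore cannot show whether the replicate numbers pair the libraries. The replicate block gave 14 higher and 39 lower genes. The crossed pairing, added after seeing the data, gave 7 and 24.

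Against 27 genes that differed between the classes, DESeq2 gave 1, no filter 46, the stricter cell filter 4, limits after thinning 6, the compact class without its *Tnnt1* limit 32 (17 of them among the 27), and leaving out 1 library 3 to 76. The cause was not tested. Without that *Tnnt1* limit *Fosb* (−0.70), *Fos*, *Hspa1a*, *Dnajb1*, *Nppb*, *Gm12940*, *Grid1* and *Pid1* lost their call. The class difference of *Hba-x* turned to 0.27 with the stricter cell filter and 1.23 with doublet scores, that of *Hbb-y* to 0.60 and 0.67, and that of *Pf4* to −3.11 without control replicate 1 (3.84 without control replicate 2). Over the 12 genes named between genotypes, 180 alternative values held 0 reversals, 15 lost and 31 gained a call. Over the 20 named between classes, 239 alternative values held 5 reversals, none of them past the threshold, and a further 94 lost the call.

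The trabecular share difference ranged from −1.25 to 6.00 percentage points on leaving out 1 library. The *Tnnt1*-rich difference turned to 0.185 with limits after thinning and 0.172 at 0.1% *Tnnt1*. There were 2 libraries per genotype, with an unequal spread of sex and the lowest depth per cell in eKO replicate 2. Their part in the number of calls was not tested.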

Other observations

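*Kctd16* and *Sorcs2* were also measured in the non-cycling cardiomyocytes outside both classes. There *Kctd16* was at 102, 134, 73.8 and 50.4 CPM and *Sorcs2* at 53.6, 54.3, 20.9 and 17.8, lower in both eKO libraries than in both controls for each. *AY036118* was at 178, 235, 409.8 and 263 in these cells and at 275, 292, 259.6 and 186 in leukocytes. It was higher in both eKO libraries than in both controls in the former and lower in both in the latter. Leukocytes held *Atf3* and *Fos* at many times the trabecular level, with *Fos* at 1610 CPM or more in each library. These values were not tested.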
